A study of Oryza sativa with 6 samples.

Results

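Calmodulin and the calmodulin-like (CML) proteins are small calcium sensors built from EF-hand loops, the helix-loop-helix unit that binds calcium. When cytosolic calcium rises, the loaded protein changes shape and binds its target enzymes, channels and transcription factors. Calmodulin is almost invariant among plants, whereas the CML proteins form a larger and more divergent plant family, several of whose members are known in other plants as genes that respond to touch, wounding and stress. Jasmonate, a hormone of wounding, defence and fertility, is perceived through the F-box protein COI1.

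The genes described here are those whose symbol or synonym in the gene annotation is CML or CAM followed by a number, read by probe sets assigned to a single gene. Of 29 genes with such a name, 26 had a single-gene probe set, and these were read by 31 probe sets, against 17905 genes and 22436 single-gene probe sets on the whole array. The members are 3 calmodulin genes, CAM1, CAM2 and CAM3, and 23 CML genes. CML2, CML21 and CML22 had no such probe set and were not analysed here. No signal value decided membership, which goes by name alone, but the family itself was chosen by earlier results from these same arrays, coi1-13 against wild type, the large rise of CML31 among them. All differences between the genotypes below, and the calls of the fit, are therefore a description of these arrays and no independent support for a family-wide change.

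Transcripts of rice (Oryza sativa) were measured in samples labelled as the young uppermost internode, the stem segment below the panicle. They came from the coi1-13 line and from wild type Nipponbare, a japonica cultivar. Each genotype had 3 arrays that the labels call biological replicates, and no treatment, plant age or pooling is given in the sources used here. The labels do not say what kind of genetic change coi1-13 carries. The COI1A, COI1B and COI2 genes, the rice COI1 family, did not pass the test (COI1A lay between 12.49 and 12.59 in coi1-13 and between 12.61 and 12.70 in wild type; adjusted p = 0.0582, limma), so these levels do not check the genotype labels. Values are log2 signals of Affymetrix rice arrays, scaled by the submitters to a common level, and the precision rests on 3 arrays per genotype.

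The labelled tissue was checked with marker genes. The stem list was above the negative controls on every array, in 6 of 6 probe sets for CESA4, CESA7, CESA9 and BC1. OSH1 and OSH15 matched no probe set under these names. The name BC1 matched different genes, LOC4347540 and LOC4333114, and which of them is the wall gene was not settled here. Anther and pollen genes were also bright: all 8 listed genes had a probe set and 7 of the 8 were above the negative controls on every array. The tapetum gene RTS had log2 signals of 14.21, 14.29 and 14.37 in coi1-13 and 14.35, 14.39 and 14.45 in wild type. CESA4 had, on its brighter probe set, means of 13.07 in coi1-13 and 13.36 in wild type. The floral gene MADS16 had means of 12.78 in coi1-13 and 12.93 in wild type. These markers therefore did not single out internode tissue, and what else the samples held was not tested. The summed signal of the 8 anther probe sets was 15.37 to 15.49 on the log2 scale in coi1-13 and 15.72 to 15.75 in wild type, and 7 of them were called lower in coi1-13. The summed signal of 9 leaf photosynthesis probe sets was 16.33 to 16.39 in coi1-13 and 16.09 to 16.14 in wild type, with 5 of them called higher, 2 lower (PORA and a probe set of CAB2R), 1 not passed and 1 not tested; RBCS accounted for 3 of the 5. The floral organ list had 3 of 5 probe sets lower and 1 higher in coi1-13. The stem list probe sets summed to 14.55 to 14.62 in coi1-13 and 14.89 to 14.95 in wild type, with 5 called lower and 1 called higher. The higher one was the BC1 probe set of LOC4347540, while that of LOC4333114 was lower. The summed levels of these lists did not overlap between the genotypes, and their part in the members' differences was not tested. In such bulk RNA, fewer cells of a type and less RNA per cell cannot be told apart.

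In the coi1-13 samples, 11 CML genes were higher and the 3 calmodulin genes, together with CML7, were lower. The rises ran from 1.23-fold for CML10 to 7.20-fold for CML31, and the falls from 1.10-fold for CAM3 to 1.31-fold for CAM2. By probe set, 12 of the 29 tested were higher, 4 were lower and 13 did not pass (limma, Benjamini-Hochberg adjusted p under 0.05 over all 34355 tested probe sets). That is 41.4% higher and 13.8% lower, where among all tested probe sets 16.5% were higher, 19.4% lower and 35.9% called in either direction. Bright probe sets were called more often: in the upper 40% by mean signal, which held all 16 called member probe sets among its 22 members, 21.4% were higher and 26.7% lower. The median log2 difference, coi1-13 minus wild type, was 0.28 over the 29 tested member probe sets and -0.01 over all tested probe sets. Members that passed the filter on mean signal are not the whole family, since 2 of the 31 probe sets fell below it.

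**Figure D1:**
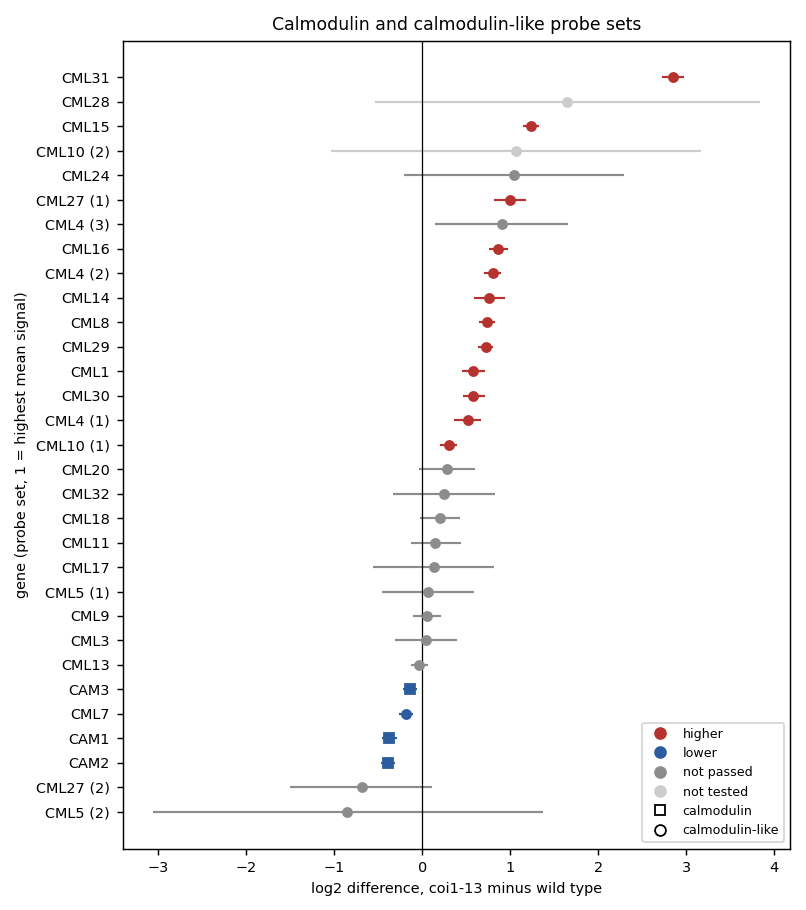
Log2 difference in signal, coi1-13 minus wild type, for the 31 probe sets of the 26 genes, with 95% confidence intervals from the limma fit (squares are calmodulin genes, circles are CML genes, colours give the call, and a number in brackets tells apart probe sets of 1 gene in order of mean signal). The 3 calmodulin squares lie left of 0 and CML31 lies farthest right, at 2.85.

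The calmodulins were described first, as the parent family of the group. CAM1 (LOC4324384) stands in the gene table under CAM1-1, CAM1-2 and CAM1-3 at once, names of gene copies known to encode the same protein. The entry is a single gene on chromosome 1, read by a single probe set. No other entry carried these names, so any copy at another place is not among the members. The CAM1 probe set had log2 signals of 12.82, 12.73 and 12.78 in coi1-13, against 13.12, 13.21 and 13.14 in wild type. CAM2 (LOC4339172) had 12.25, 12.25 and 12.25 in coi1-13, against 12.59, 12.64 and 12.69 in wild type. The genotypes did not overlap for either gene, with gaps of 0.30 and 0.34 between the nearest arrays. The log2 difference was -0.38 ± 0.04 (SE) for CAM1 and -0.39 ± 0.04 (SE) for CAM2.

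CAM3 (LOC4326903) showed the smallest called difference of the family. Its log2 signals were 13.14, 13.14 and 13.18 in coi1-13, against 13.31, 13.24 and 13.33 in wild type. The nearest arrays of the genotypes were 0.06 apart, and the log2 difference was -0.14 ± 0.04 (SE). The call of CAM3 was lost when the variance was modelled without a trend on signal (adjusted p = 0.0912, limma). By size of fall, CAM2 ranked 5066, CAM1 5282 and CAM3 11950 among all 34355 tested probe sets.

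CML7 (LOC4344525) was the only CML gene called lower among the 22 CML genes tested. Its log2 signals were 12.61, 12.64 and 12.71 in coi1-13, against 12.84, 12.87 and 12.82 in wild type. The 3 coi1-13 arrays lay below the 3 wild type arrays, and the fall was 1.14-fold (-0.19 ± 0.04, SE, on the log2 scale). No gene of the family called lower changed 2-fold, where 2.0% of all tested probe sets were called lower with a change that large.

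CML31 (LOC4325408), a gene for an EF-hand protein of the CML family, had the largest difference among the members. Its log2 signals were 11.53, 11.62 and 11.59 in coi1-13, against 8.70, 8.80 and 8.68 in wild type. The lowest coi1-13 array lay 2.72 above the highest wild type array, and the wild type arrays themselves spanned far less than that gap. The log2 difference was 2.85 ± 0.05 (SE), with a 95% confidence interval of 2.73 to 2.97. By size of rise it ranked 80 among all 34355 tested probe sets, and by p-value it ranked 11. Of the 20 nearest genes with a tested probe set, 10 on each side in gene order, 6 were called higher and 5 lower. With 1 probe set per gene, 21.2% of all tested genes were higher and 26.7% lower. The largest rise among the 20 was 2.05 on the log2 scale.

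CML15 (LOC4338633) was the other member called with a change of at least 2-fold, so that 2 of 29 tested probe sets met that criterion (CML27, given below, lay just under it before rounding), where 5.45% of all tested probe sets did, 3.46% in the upward direction. Its log2 signals were 11.63, 11.60 and 11.57 in coi1-13, against 10.34, 10.37 and 10.37 in wild type. The genotypes were separated by 1.19, and the rise was 2.36-fold (1.24 ± 0.04, SE, on the log2 scale). The spread within a genotype was small for this gene, with an SD of 0.031 in coi1-13 and 0.017 in wild type (n = 3 each).

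A further group of CML genes was higher by 1.64-fold to 2.00-fold. CML27 (LOC4332731) had log2 signals of 11.08, 10.99 and 11.17 in coi1-13, against 9.96, 10.27 and 10.01 in wild type, on its brighter probe set. CML16 (LOC4325693) had 13.33, 13.32 and 13.49 in coi1-13, against 12.50, 12.52 and 12.53 in wild type. The log2 differences were 1.00 ± 0.08 for CML27 and 0.86 ± 0.05 for CML16 (SE), with the 3 coi1-13 arrays above the 3 wild type arrays in both.

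CML14 (LOC4339701) had log2 signals of 9.44, 9.44 and 9.23 in coi1-13, against 8.62, 8.55 and 8.66 in wild type. CML8 (LOC4348517) had 11.55, 11.50 and 11.54 in coi1-13, against 10.83, 10.77 and 10.75 in wild type. CML29 (LOC4341908) had 11.83, 11.79 and 11.74 in coi1-13, against 11.10, 11.05 and 11.07 in wild type. These genes rose by similar amounts, 0.76 ± 0.08, 0.74 ± 0.04 and 0.72 ± 0.04 (SE) on the log2 scale, and in each the lowest coi1-13 array was at least 0.57 above the highest wild type array.

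CML4, a gene whose overexpression in rice is known to raise drought tolerance, was read by 3 probe sets. The brightest had log2 signals of 11.47, 11.65 and 11.73 in coi1-13, against 11.00, 11.14 and 11.15 in wild type, a rise of 1.43-fold. The next, of the kind that can match several similar transcripts, had 11.32, 11.42 and 11.39 in coi1-13, against 10.59, 10.55 and 10.59 in wild type, a rise of 1.74-fold. Both were called higher without overlap between the genotypes. The third was dim, with 5.71, 5.49 and 5.82 in coi1-13, against 4.55, 4.95 and 4.79 in wild type. It was above the negative controls on the 3 coi1-13 arrays and on none of the wild type arrays. Its coi1-13 mean was 1.55-fold above the highest wild type controls. The interval of its log2 difference ran from 0.15 to 1.66, and it did not pass (adjusted p = 0.0608, limma).

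CML1, known earlier as CAM61, encodes a calmodulin-like protein with a long C-terminal extension that carries a prenylation site. It had log2 signals of 10.44, 10.40 and 10.28 in coi1-13, against 9.80, 9.83 and 9.75 in wild type, a rise of 1.49-fold. CML3, which encodes another protein with such an extension, did not pass: it had 6.86, 7.26 and 7.04 in coi1-13, against 7.09, 7.06 and 6.88 in wild type, and its arrays overlapped. The interval of the CML3 difference ran from -0.31 to 0.40 on the log2 scale. CML30 (LOC4340272) rose 1.50-fold, with 11.26, 11.45 and 11.25 in coi1-13, against 10.77, 10.73 and 10.73 in wild type.

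CML10 (LOC4325762) showed the smallest rise that was called. Its brighter probe set had log2 signals of 11.07, 11.06 and 11.00 in coi1-13, against 10.76, 10.72 and 10.76 in wild type. The log2 difference of 0.30 ± 0.04 (SE) became 0.18 when each array was centred on its median, and the call was then lost (adjusted p = 0.0559, limma). That centring lowered the median log2 difference of all tested probe sets by 0.12, so differences of the members moved by the same amount and the calmodulin falls became larger, at -0.50 for CAM1, -0.51 for CAM2 and -0.26 for CAM3.

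**Figure D2:**
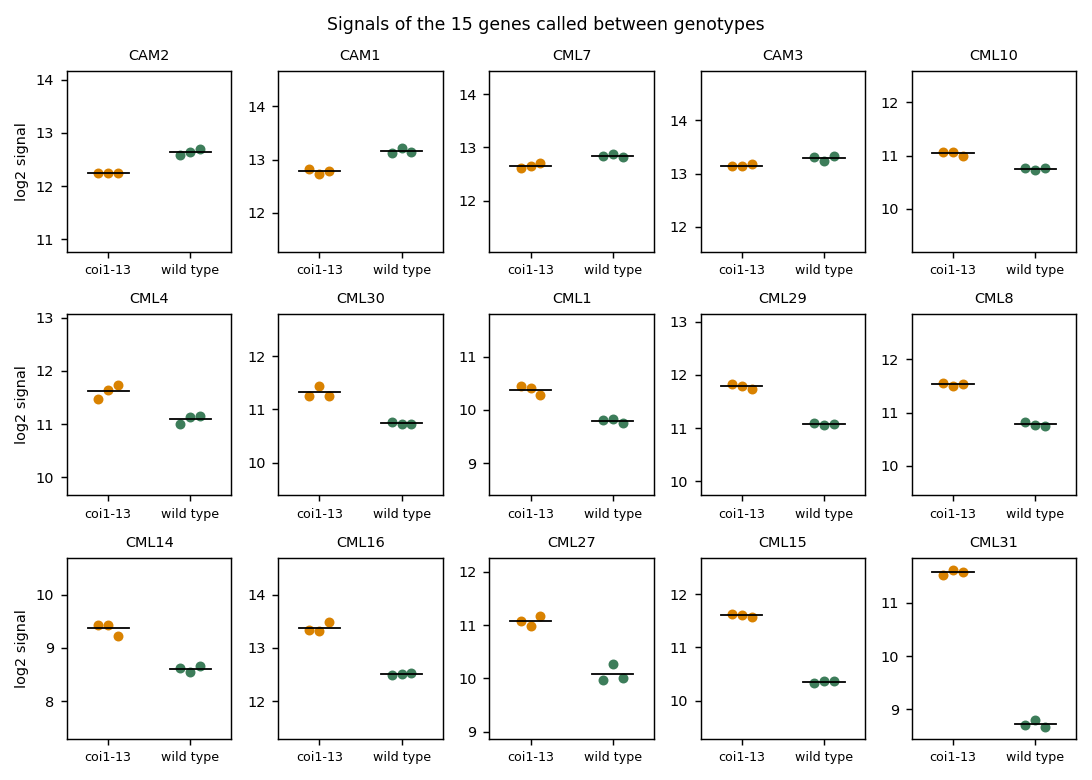
Log2 signal on each array (points) and the group mean (line) for the 15 genes called between the genotypes, coi1-13 at left and wild type at right in each panel, using each gene's brightest probe set. Panels run from the largest fall, CAM2, to the largest rise, CML31, and in none of them do the genotypes overlap.

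Replicate spread was small against these differences, as a call itself requires. Across the 12 probe sets called higher, the SD of the 3 arrays ran from 0.03 to 0.14 in coi1-13 and from 0.02 to 0.17 in wild type. Among the 13 that did not pass, it reached 2.166 in coi1-13 and 1.295 in wild type. The genotypes did not overlap in any of the 16 called member probe sets, nor in CML20 and the dim CML4 probe set, which did not pass. That makes 62.1% of tested member probe sets, where the genotypes did not overlap in 47.5% of all tested probe sets. The adjusted p-values of the called probe sets ran from 3.37e-10 for CML31 to 0.00988 for CAM3 (limma).

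**Figure D3:**
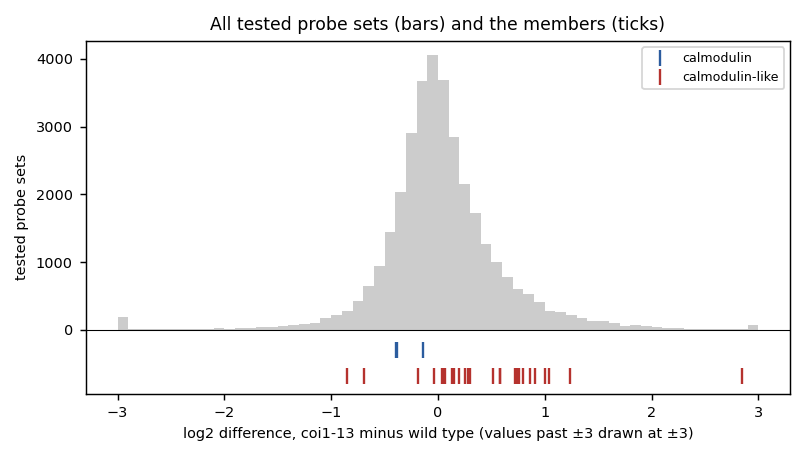
Number of tested probe sets (grey bars) by log2 difference, coi1-13 minus wild type, with ticks below the axis for the 3 tested calmodulin and 26 tested CML probe sets. Calmodulin ticks lie between -0.39 and -0.14, and CML ticks between -0.85 and 2.85.

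Of the genes tested, 10 did not pass on their brightest probe set: CML3, CML5, CML9, CML11, CML13, CML17, CML18, CML20, CML24 and CML32. Bright members among them had narrow intervals. CML13, whose probe set is of the kind that may cross-hybridise, had log2 signals of 12.14, 12.12 and 12.16 in coi1-13, against 12.22, 12.21 and 12.10 in wild type, and its interval ran from -0.13 to 0.06. CML9 had 9.19, 9.37 and 9.23 in coi1-13, against 9.22, 9.16 and 9.25 in wild type, with an interval of -0.10 to 0.21. CML18 had 12.19, 11.85 and 11.81 in coi1-13, against 11.87, 11.83 and 11.55 in wild type, with an interval of -0.03 to 0.43. The intervals of CML9 and CML13 ended below 0.30, the smallest called rise, and that of CML18 did not.

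The dimmer members were bounded less closely. CML20 had log2 signals of 7.44, 7.42 and 7.34 in coi1-13, against 7.25, 7.21 and 6.89 in wild type, so its arrays did not overlap, but it did not pass (adjusted p = 0.161, limma). CML11 had 7.70, 7.61 and 7.83 in coi1-13, against 7.38, 7.71 and 7.59 in wild type, and CML32 had 6.39, 5.85 and 6.08 in coi1-13, against 5.97, 5.56 and 6.04 in wild type. Both sets of arrays overlapped. CML17, with 5.50, 5.81 and 5.32 in coi1-13, against 5.27, 5.29 and 5.67 in wild type, lay close to the negative controls, above them on 2 of 3 coi1-13 arrays and on the 3 wild type arrays. CML24 had 4.81, 5.77 and 5.12 in coi1-13, against 4.25, 5.07 and 3.26 in wild type. It was above the negative controls on 1 coi1-13 array and on no wild type array, with an interval of -0.21 to 2.29, so its difference was not measured. CML28 stayed at or under the negative controls throughout, with log2 signals of 0.62, 3.86 and 3.60 in coi1-13, against 1.58, 1.36 and 0.19 in wild type, and lay below the filter on mean signal.

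Of the 4 genes read by several probe sets, CML27 and CML5 had probe sets whose differences had opposite signs. On the brighter CML27 probe set the gene rose 2.00-fold, while the dimmer one had 5.40, 6.11 and 4.69 in coi1-13, against 5.96, 6.21 and 6.11 in wild type. The dim signals exceeded the negative controls on 2 coi1-13 arrays and on the 3 wild type arrays, and did not pass, at a log2 difference of -0.69 (adjusted p = 0.172, limma). Without coi1-13 replicate 2 this dim probe set was called lower (-1.05, adjusted p = 0.0428, limma), and without coi1-13 replicate 3 the difference was -0.34 (adjusted p = 0.447, limma), so the rise of CML27 rests on its brighter probe set. The probe sets of CML5 did not pass either, at log2 differences of 0.07 on the brighter and -0.85 on the dimmer. The brighter had 6.45, 5.98 and 6.36 in coi1-13, against 6.41, 6.27 and 5.91 in wild type, and the dimmer 6.90, 3.09 and 3.21 in coi1-13, against 6.22, 5.74 and 3.78 in wild type. Arrays of the dimmer spread so widely that the interval of its difference ran from -3.06 to 1.37. The second CML10 probe set stayed under the negative controls throughout.

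**Figure D4:**
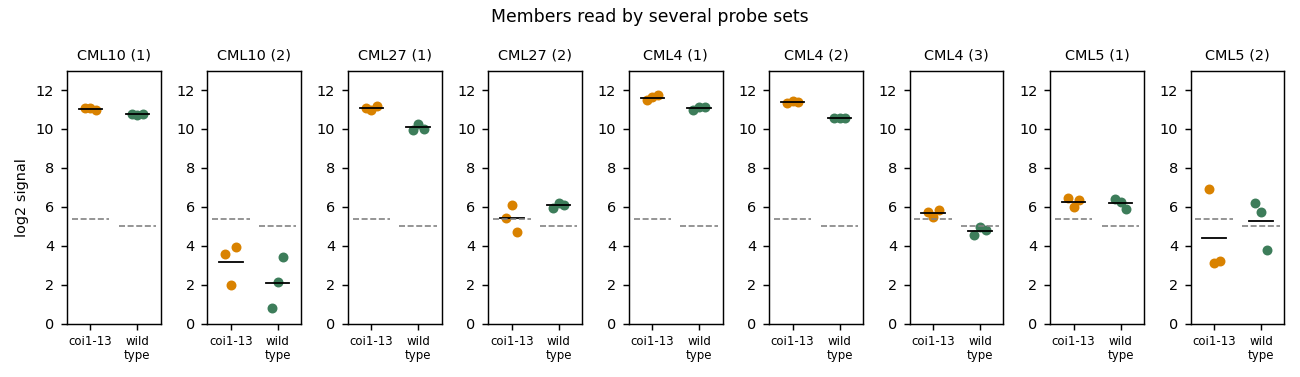
Log2 signal on each array (points) and group mean (solid line) for the 9 probe sets of CML10, CML27, CML4 and CML5, coi1-13 at left and wild type at right, with the mean of each array's highest negative control in that group as a dashed line. Bright probe sets of CML10, CML27 and CML4 separate the genotypes, while the other probe sets lie lower, some of them at the dashed line or below it.

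Members lay close together in the gene order in 2 cases. CML9 and CAM2 are next to each other in the gene table, and the log2 difference was 0.05 ± 0.07 for CML9 and -0.39 ± 0.04 for CAM2 (SE). CML10 and CML31 are 38 places apart on the same chromosome, with differences of 0.30 and 2.85. Other members were at least 75 places apart.

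Other genes of calcium signalling, listed by symbol, went both ways. The list held the CIPK kinases and the CBL sensors that activate them, the CPK kinases with their own EF hands, calcium pumps (ACA), exchangers (CAX) and a few single genes. With the brightest probe set of each gene, 59 of 65 were tested, of which 17 were higher, 12 lower and 30 did not pass, with a median log2 difference of 0.03. That is 28.8% higher and 20.3% lower, where with 1 probe set per gene 21.2% of all 16706 tested genes were higher and 26.7% lower. Of 22 CIPK genes tested, 10 were higher and 2 lower, and of 16 CPK genes 3 were higher and 2 lower. After centring each array on its median the balance of the whole list turned, with 13 higher and 16 lower. Among all tested probe sets that centring gave 3721 higher and 9522 lower.

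The 5 called genes of this list with the smallest p-values were CIPK6, CIPK1, CIPK16, CRT1 and ACA5. CIPK6 fell, with log2 signals of 10.82, 10.82 and 10.88 in coi1-13, against 11.78, 11.90 and 11.83 in wild type. CIPK1 rose by the same amount, 0.99 on the log2 scale, with 11.42, 11.45 and 11.44 in coi1-13, against 10.45, 10.39 and 10.50 in wild type. CIPK16 rose 2.04-fold, CRT1, a gene for calreticulin, the calcium-binding chaperone of the endoplasmic reticulum, fell 1.45-fold, and ACA5, a calcium pump gene, rose 1.49-fold.

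**Figure D5:**
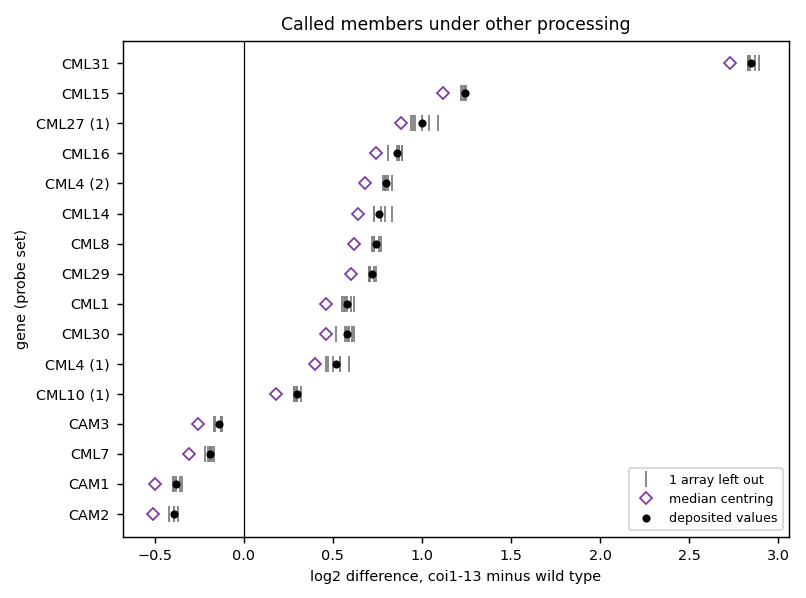
Log2 difference, coi1-13 minus wild type, of the 16 called member probe sets on the deposited values (filled circles), after centring each array on its median (diamonds) and with 1 array left out in turn (grey marks). No called difference changes sign, and every diamond lies left of its circle.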

How the data were processed

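RNA of 6 samples was read on Affymetrix rice arrays after biotin labelling, per the labels' protocols. The authors deposited log2 signals made with GCOS 1.4, per the submitters' processing notes. The trimmed mean (2% off each end) of the unlogged signals came to 500.07 for every array, the mark of scaling to a target of 500. No other step is given in the sources used here.

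Genes were assigned by the platform annotation and named through a RefSeq gene table (assembly ASM3414082v1), used for names and gene order only. The test was limma's (version 3.58.1, R 4.3.3; eBayes with trend, unblocked) on 34355 probe sets, the brightest 60% by mean of all 6 arrays. Calls used a Benjamini-Hochberg adjusted p under 0.05 over all of them. A probe set was above the negative controls where it exceeded the highest of 33 on that array, 5.26 to 5.56 in coi1-13 and 4.93 to 5.11 in wild type. Folds are powers of 2 of the log2 difference, save that of the third CML4 probe set, which sets its coi1-13 mean against those controls in wild type. Every member is named, with array values for the called ones, and the 5 list genes of smallest p. The members and lists were chosen with earlier results of these data known. The limma fit was tested on simulated arrays with known changes. P-values set the difference between genotypes against the spread between these arrays, drawn toward a trend over all tested probe sets.

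Same-numbered arrays of the genotypes did not deviate together, with correlations of -0.0029, 0.0011 and 0.0004, so the replicate numbers were not taken as pairs. Alternatives were median centring, quantile normalization, other filters, no variance trend, a replicate block, leaving out each array, a 2-fold criterion and 1 probe set per gene.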

Additional observations from a re-analysis of the deposited data

How the results depend on the processing

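Of the 16 called member probe sets, 14 kept call and direction under all 12 alternative fits that tested them, and the exceptions were CAM3 without the variance trend and CML10 under median centring, both given above. With 1 array left out, 12 members were higher each time and 4 to 5 lower, their median ran from 0.26 to 0.31, all probe sets gave 4925 to 5273 higher and 5688 to 6091 lower, and the calcium list 15 to 18 higher and 8 to 10 lower. Counting only calls of at least 2-fold, 2 members were higher and 0 lower, all probe sets gave 1188 higher and 686 lower, and the calcium list 3 higher and 0 lower. Median centring left 3721 probe sets higher and 9522 lower, took the members' median to 0.16, and called CML13 lower (-0.16, adjusted p = 0.0393, limma). The upper 40% by mean signal, which holds fewer and brighter members, gave a median of 0.41. The third CML4 probe set was called higher without the variance trend (adjusted p = 0.00812, limma). With the replicate block, 13 members were higher and 4 lower, CML18 being the addition (0.20, adjusted p = 0.0265, limma). The log2 differences of 4 uncalled members changed sign near 0. CML3 was at -0.08 under median centring and ran from -0.06 to 0.14 with 1 array left out, CML9 at -0.07 and from -0.0029 to 0.09, and the brighter CML5 probe set at -0.05 and from -0.07 to 0.21. CML17 was at -0.0045 under quantile normalization and ran from -0.0017 to 0.26 with 1 array left out. The cause of these changes was not tested. Dim probe sets near the negative controls limit what can be said of CML5, CML17, CML24 and CML28.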
